A study of Mus musculus with 4 samples.

Results

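The natriuretic peptide system of the mouse heart was read across sham and pressure-overloaded hearts at 2 and 8 weeks after surgery. The 9 genes were the 3 peptide precursors Nppa, Nppb and Nppc, the receptors Npr1, Npr2 and Npr3, and the enzymes Corin, Furin and Mme. They were found by the transcript accession of each probe, which gave 10 probes of the 55681 non-control probes on the array. Mme had 2 probes and each other gene had 1. Named genes numbered 21763 in all, of which 14299 were measured, that is well above background, on all 4 arrays.

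The study compared transverse aortic constriction (TAC), a narrowing of the aortic arch that raises the pressure the left ventricle works against, with a sham operation. It set out to screen for long intergenic noncoding RNAs in hypertrophy at 2 weeks and in the heart failure phase at 8 weeks. Total RNA from hearts of male mice, of the strain C57BL/6J in the study's methods, was labelled with Cy3 and hybridized to single-colour Agilent arrays. There were 4 groups of 1 array each, which were sham at 2 weeks, TAC at 2 weeks, sham at 8 weeks and TAC at 8 weeks. The labels give the age as 10 weeks for both groups at 2 weeks and as 16 weeks for both groups at 8 weeks, and the methods give an age at surgery that does not match these. The labels name no transgene or drug. RNA from several mice was pooled for each array, so the spread between mice was not measured, there were no replicates and no test was made. Each ratio is therefore a ratio of 2 pools, and sham at 8 weeks over sham at 2 weeks shows how far 2 pools of unconstricted hearts lay apart, with age differing as well.

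Atrial natriuretic peptide, from Nppa, and B-type natriuretic peptide, from Nppb, are hormones that cardiomyocytes release under stretch, and they lower blood pressure by driving salt excretion and vasodilation. In the adult heart Nppa is made mostly in the atria, and its return in the ventricle is a textbook sign of cardiac hypertrophy. Both peptides act on a guanylyl cyclase receptor that makes cGMP, whereas the C-type peptide from Nppc acts on the related receptor NPR2, and a receptor without a cyclase clears all of them. The precursors are cut by proteases before they act, and neprilysin degrades the finished peptides.

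Nppa and Nppb lie next to each other on mouse chromosome 4 and were the genes that rose, so the 250 bases before each RefSeq start site are given here, on GRCm38.p6 and on the plus strand. They span chr4:148000472-148000721 for Nppa and chr4:147985650-147985899 for Nppb. Capitals mark matches, on either strand, to GATAA (bound by GATA factors), CATTCC (TEAD factors), TNAAGTG (NK-2 homeobox factors) and AGGTGTGA (T-box factors). These motifs were chosen after the sequences had been read.
Nppa: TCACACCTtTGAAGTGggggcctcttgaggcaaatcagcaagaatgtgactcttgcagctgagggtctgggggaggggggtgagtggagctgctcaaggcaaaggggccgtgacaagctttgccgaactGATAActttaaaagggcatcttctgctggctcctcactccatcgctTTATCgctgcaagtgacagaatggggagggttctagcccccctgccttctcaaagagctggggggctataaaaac
Nppb: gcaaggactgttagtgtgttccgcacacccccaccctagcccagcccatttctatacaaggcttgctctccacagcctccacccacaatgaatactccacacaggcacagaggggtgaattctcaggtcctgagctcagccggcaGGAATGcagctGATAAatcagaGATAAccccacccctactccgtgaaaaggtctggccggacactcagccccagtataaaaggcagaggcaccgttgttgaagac
The Nppa window held GATAA or its reverse complement at 121 and 75 bases before the start, TNAAGTG at 241 and the reverse complement of AGGTGTGA at 250, each counted to the leftmost base of the match. The Nppb window held GATAA at 94 and 83 bases before the start and CATTCC, as its reverse complement, at 105. Neither window held an exact match to TGANTCA, the letters of an AP-1 site. Nor did either hold an exact CArG box, the site of SRF, written as CCWWWWWWGG where W is A or T. Sites that depart from these letters were not searched for, so SRF sites of other spelling may be present. No marked match overlaps another. Among 32851 promoter windows of the same length, 22.6% held GATAA, 12.6% CATTCC, 10.1% TNAAGTG, 1.12% AGGTGTGA, 6.75% TGANTCA and 1.47% a CArG box. A match is a run of letters and no evidence of binding in these hearts.

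Signals are given as relative signal, which is the processed signal of a probe as a multiple of the 75th percentile of all non-control probes on that array, and ratios on the log2 scale. That percentile ranged from 206.0 to 248.5 over the arrays. No spot was saturated, and the share of probes well above background ranged from 54.7% to 58.5%. Spots of probes that are printed several times gave the spot error, the SD between spots of a probe on the same array. For the log2 ratio between a pair of spots this SD was 0.086 above a relative signal of 4, 0.13 between 0.25 and 4, and 0.32 below 0.25. It leaves out error between arrays, such as that of labelling, which was not measured. A ratio between arrays thus carries more technical error than the spot error. The samples carried heart muscle, since all 6 genes of the ventricular marker list were well above background on all 4 arrays. These were Myl2, Myl3, Myh6, Tnnt2, Tnni3 and Actc1, with a summed relative signal between 7793 and 9326. Myh6, Tnnt2, Tnni3 and Actc1 are also made in atrial muscle, so the list does not separate ventricle from atrium. In bulk tissue, fewer cells of a type and less RNA per cell cannot be told apart.

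Of the 9 genes, Nppa and Nppb were more than 2-fold higher after TAC and well above background on the TAC array, at 2 weeks and again at 8 weeks. Among all 21763 genes read by the same rule, 1.71% were higher at 2 weeks and 2.32% at 8 weeks. None of the 9 was more than 2-fold lower at either time, where 0.836% and 1.46% of all genes were. Nppc was not well above background on any array, and the other 8 genes were on all 4. Over these 8 the median log2 TAC/sham was -0.03 at 2 weeks and 0.01 at 8 weeks, compared with -0.01 at both times over the 14299 measured genes. The rise was thus in 2 of the 3 ligand genes, while the receptors and enzymes lay within 2-fold of sham.

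**Figure D1:**
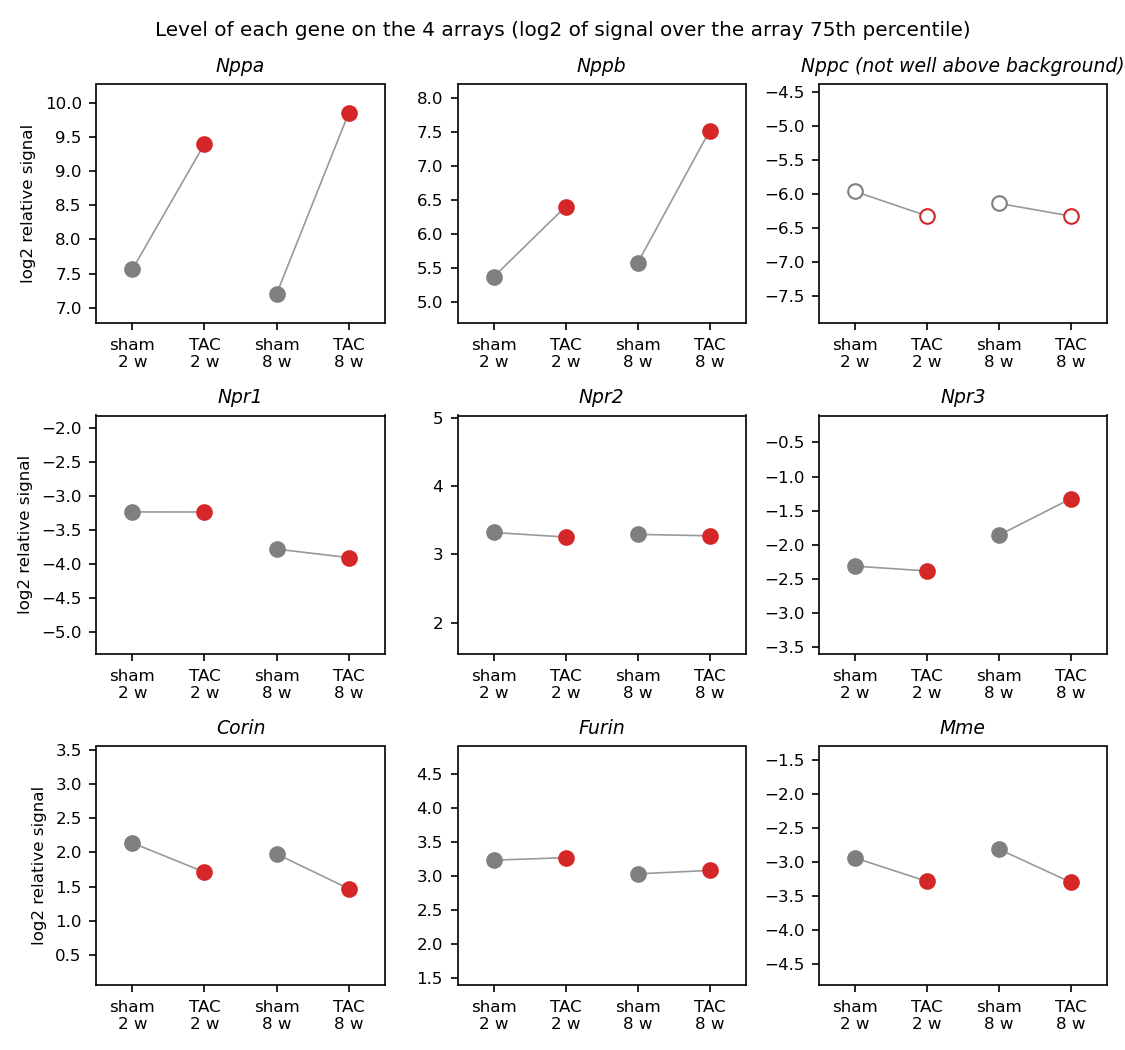
Level of each of the 9 genes on the 4 arrays, as log2 of the signal over the array's 75th percentile, with gray points for sham, red points for TAC and lines that join the 2 arrays of a time point; every panel spans 3.5 log2 units, levels are not comparable between panels, and there are no error bars because each group is 1 array. Nppa and Nppb were higher on both TAC arrays, Npr3 was highest on the TAC array at 8 weeks, and the open points of Nppc were not well above background.

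Nppa, the precursor of atrial natriuretic peptide, had the largest ratios of the 9 genes at both times. Its relative signal was 189 in sham and 677 in TAC at 2 weeks, and 147 in sham and 922 in TAC at 8 weeks. Nppa thus rose 3.58-fold at 2 weeks and 6.28-fold at 8 weeks. On the log2 scale these ratios were 1.84 ± 0.021 and 2.65 ± 0.023, where the error is the SE over the spots of the probe and not over mice.

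The Nppa probe is printed in 10 spots on each array, of which 9 were used on 3 of the arrays and 10 on the other. At 2 weeks the relative signal of single spots ran from 176 to 196 in sham and from 649 to 695 in TAC. At 8 weeks it ran from 139 to 151 in sham and from 849 to 981 in TAC. No spot of a sham array reached the lowest spot of a TAC array. Among the 14299 measured genes Nppa ranked 20 from the top by log2 TAC/sham at 2 weeks and 15 at 8 weeks.

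Between the times, Nppa read lower in the sham pools and higher in the TAC pools, in both cases by less than 2-fold. In sham hearts log2 of 8 weeks over 2 weeks was -0.36, a ratio of 0.777, and in TAC hearts it was 0.45, a ratio of 1.36. The TAC/sham ratio on the log2 scale was 0.81 larger at 8 weeks than at 2 weeks, which is the sum of these 2 differences.

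Nppb, the precursor of B-type natriuretic peptide, rose less than Nppa at both times. Its relative signal was 41.3 in sham and 84.5 in TAC at 2 weeks, and 47.7 in sham and 183 in TAC at 8 weeks. The ratio was 2.05 at 2 weeks, only just past the 2-fold rule, and 3.84 at 8 weeks, which is 1.03 and 1.94 on the log2 scale. With the array median in place of the 75th percentile the log2 ratio at 2 weeks was 0.99, below the rule.

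In contrast to Nppa, Nppb was slightly higher in the sham pool at 8 weeks than at 2 weeks, by 0.21 on the log2 scale. Its gain between the times lay in the TAC arm, where TAC at 8 weeks over TAC at 2 weeks was 2.17-fold. TAC/sham on the log2 scale was 0.91 larger at 8 weeks. By this change Nppb ranked 140 and Nppa 187 from the top of the 14299 genes. By log2 TAC/sham itself Nppb ranked 118 at 2 weeks and 38 at 8 weeks.

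Nppc, the precursor of C-type natriuretic peptide, which is made mainly by endothelium and in growing bone, was not well above background on any of the 4 arrays. Its relative signal lay between 0.0125 and 0.0160, where the lowest signal of any probe well above background was 0.0469 to 0.0600 depending on the array. No ratio is given for it.

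**Figure D2:**
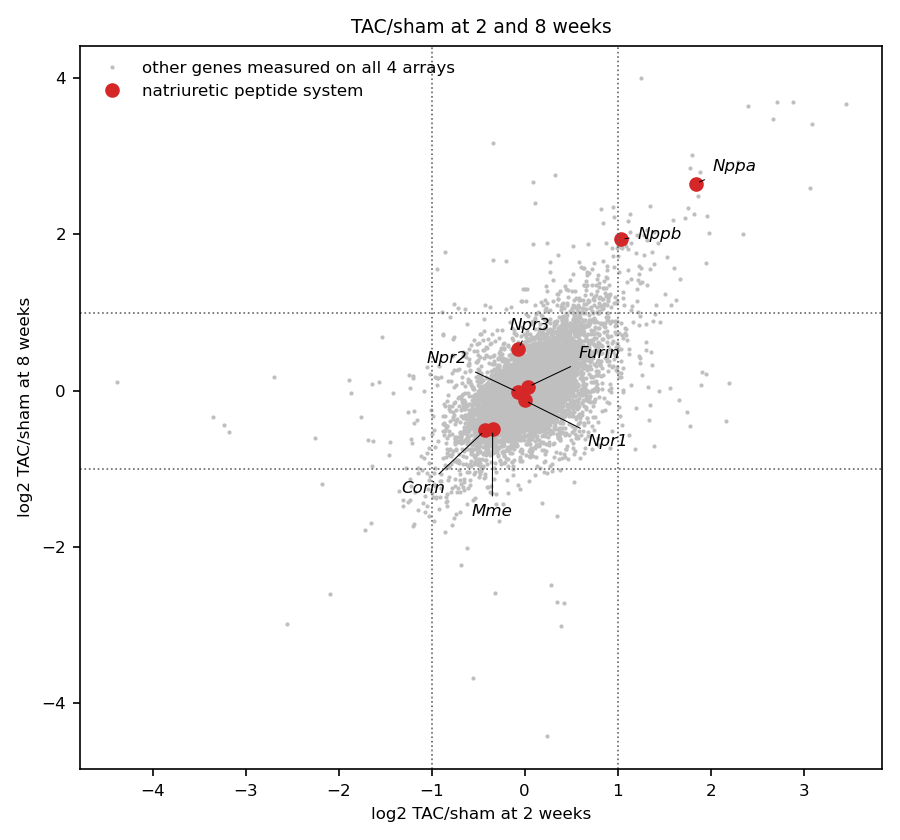
Log2 TAC/sham at 2 weeks (horizontal) and at 8 weeks (vertical) of the 14299 genes well above background on all 4 arrays, in gray, with the 8 measured genes of the natriuretic peptide system in red and 2-fold marked by dotted lines. Nppa and Nppb lie beyond 2-fold on both axes, and the other 6 lie inside it.

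The receptors were measured at steady or modest levels. Npr2, the guanylyl cyclase receptor of C-type natriuretic peptide, was the steadiest of the 8 measured genes, with a relative signal of 10.0 in sham and 9.55 in TAC at 2 weeks and of 9.81 and 9.67 at 8 weeks. Its log2 level spanned 0.07 over the 4 arrays, less than the SD of the ratio of 2 spots at that signal. Npr1, the cyclase receptor through which the atrial and B-type peptides act, was close to the lowest measurable signal.

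For Npr1 the relative signal was 0.106 in sham and 0.106 in TAC at 2 weeks, and 0.0729 in sham and 0.0669 in TAC at 8 weeks. For TAC/sham the log2 ratio was 0.00 at 2 weeks and -0.12 at 8 weeks, which is inside the spot error at this signal. The larger difference was between times, with a log2 sham 8 weeks/sham 2 weeks of -0.55 and a log2 TAC 8 weeks/TAC 2 weeks of -0.67. Both are near 0.63, which is 2 times the SD of the ratio of 2 spots for signals this low.

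Npr3, the clearance receptor that removes all 3 peptides, had its highest signal in TAC at 8 weeks. Its relative signal was 0.201 in sham and 0.191 in TAC at 2 weeks, and 0.275 in sham and 0.399 in TAC at 8 weeks. The log2 TAC/sham ratio was -0.07 at 2 weeks and 0.54 at 8 weeks, so Npr3 did not pass the 2-fold rule at either time. Between the 2 TAC arrays it rose 2.09-fold, and Nppb was the only other of the 9 genes past 2-fold in that comparison, where 1.16% of all genes were higher and 1.23% lower.

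The sham pools differed for Npr3 as well, by 0.45 on the log2 scale in the same direction. The change of its log2 TAC/sham ratio from 2 to 8 weeks was 0.61, rank 344 from the top of the 14299 genes. Its signals lie on both sides of a relative signal of 0.25, so the spot error that applies is 0.13 or 0.32. With normexp background correction the ratio at 8 weeks was 0.25.

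Corin, the cardiomyocyte membrane protease that cuts the atrial peptide precursor, was lower on both TAC arrays without passing 2-fold. Its relative signal was 4.41 in sham and 3.28 in TAC at 2 weeks, and 3.94 in sham and 2.77 in TAC at 8 weeks. The log2 TAC/sham ratios of -0.43 and -0.51 exceeded 0.26, which is 2 times the spot error at that signal, and the ratios were 0.743 and 0.703. Counted from the lowest ratio of the 14299 genes, Corin ranked 711 at 2 weeks and 749 at 8 weeks. For Corin, log2 sham 8 weeks/sham 2 weeks was -0.16.

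Furin, a proprotein convertase of the secretory pathway that cuts the B-type and C-type precursors, was level. Its relative signal was 9.38 in sham and 9.62 in TAC at 2 weeks, and 8.16 in sham and 8.45 in TAC at 8 weeks. The log2 TAC/sham ratio was 0.04 at 2 weeks and 0.05 at 8 weeks, inside the spot error, and the sham pools differed more, by -0.20.

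Mme, which encodes neprilysin, the peptidase that degrades natriuretic peptides, gave low signals on both of its probes. On the brighter probe the relative signal was 0.13 in sham and 0.103 in TAC at 2 weeks, and 0.143 in sham and 0.102 in TAC at 8 weeks. On the other probe it was 0.114 and 0.0934 at 2 weeks, and 0.123 and 0.0743 at 8 weeks. Both probes thus read lower on both TAC arrays.

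For Mme, log2 TAC/sham was -0.34 and -0.49 on the brighter probe and -0.29 and -0.73 on the other. With normexp background correction the brighter probe read -0.12 and -0.24. Of these 4 ratios, the last alone exceeded 0.63, which is 2 times the spot error for signals below 0.25, and none passed 2-fold. Both probes differed between the sham pools by 0.11 to 0.13.

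None of the 9 genes differed by more than 2-fold between the sham pools at 8 and 2 weeks, where 1.16% of all genes were higher and 0.698% lower at 8 weeks. The log2 sham 8 weeks/sham 2 weeks of the 8 measured genes ran from -0.55 for Npr1 to 0.45 for Npr3. The ratios of Nppa and Nppb after TAC were at both times larger than any of these. Those of Npr1, Npr2, Npr3, Corin, Furin and, on its brighter probe, Mme were no larger in size than 0.55, the difference between the shams seen for Npr1. Npr1 was dim, with a spot error of 0.32, so this is a wide mark for brighter genes. For Corin the sham difference was -0.16 beside TAC/sham ratios of -0.43 and -0.51, and for Furin it was -0.20 beside 0.04 and 0.05.

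**Figure D3:**
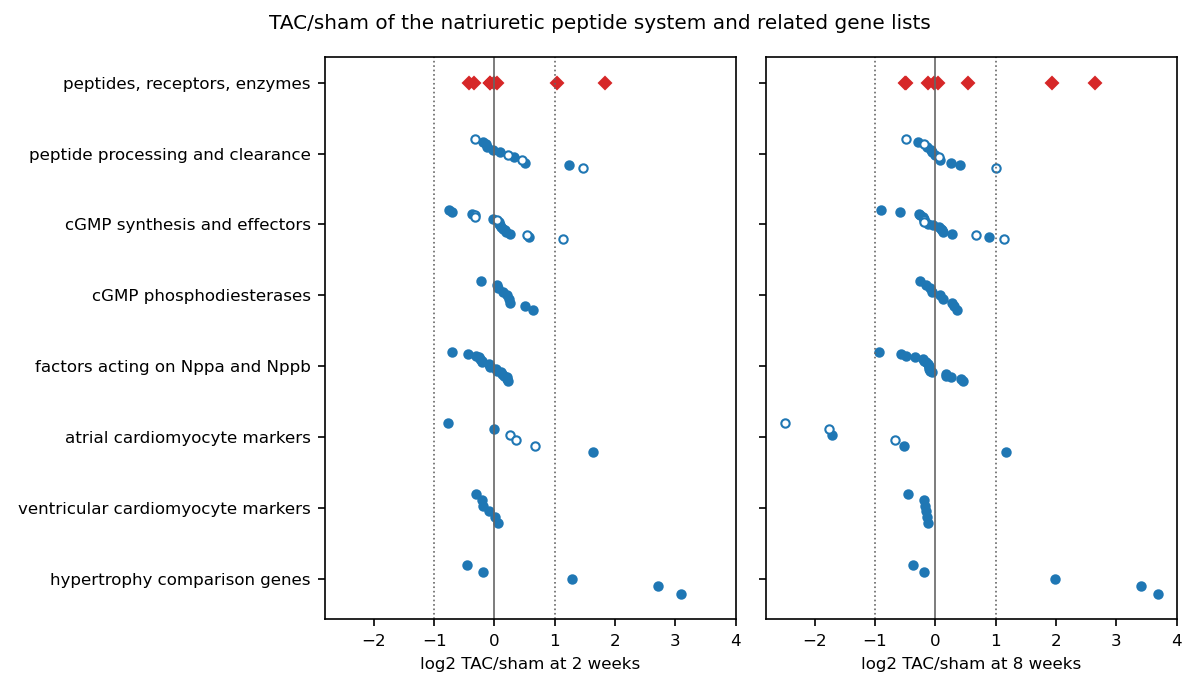
Log2 TAC/sham at 2 weeks (left) and 8 weeks (right), with 1 point per gene, for the 8 measured genes (red diamonds) and for related gene lists (blue), where open points are genes not well above background on all 4 arrays and dotted lines mark 2-fold. Most genes of the processing, cGMP and transcription factor lists lie between the dotted lines, whereas 3 of the 5 hypertrophy comparison genes lie beyond 2-fold at both times.

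Other genes of peptide processing and clearance, proteases apart from Ostn, were read as a list of 12, with 8 measured on all 4 arrays. Over those 8 the median log2 TAC/sham was 0.03 at 2 weeks and -0.03 at 8 weeks. Pcsk5, a proprotein convertase, rose at 2 weeks, and Mmel1, a close relative of neprilysin, was called higher at both times. Pcsk6, a convertase that activates corin, was near the list median, at -0.02 and -0.05.

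The Pcsk5 relative signal was 0.145 in sham and 0.341 in TAC at 2 weeks, and 0.233 in sham and 0.311 in TAC at 8 weeks. Its log2 TAC/sham was 1.24 and 0.41, and a further Pcsk5 probe was not well above background on any array. Mmel1 was not well above background in either sham pool, so its TAC signal was at least 1.25-fold higher at the earlier time and at least 1.88-fold higher at the later time. These bounds lie below 2-fold. Pcsk1 and Ostn, the second of which encodes a ligand of the clearance receptor, were not well above background on any array.

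The next list held 18 genes for cGMP synthesis by other cyclases and for effectors of cGMP and of G protein signalling. At its brightest probe, none of these was past 2-fold at either time with the brighter array well above background. By the same rule 1.71% of all genes were higher and 0.836% lower at 2 weeks, and 2.32% and 1.46% at 8 weeks. A count of 0 in 18 is near those shares. Of the 18 genes, 13 were measured on all 4 arrays, with a median log2 TAC/sham of 0.10 at 2 weeks and -0.04 at 8 weeks. Trpc6, Prkg2, Gucy2f and Gucy2g were not well above background on any array, and the Trpc6 ratio of 2.20 at both times rests on such signals. A further Gucy2e probe, well above background on 1 array, had a log2 TAC/sham of 2.20 at 2 weeks and -0.57 at 8 weeks. Gnai3, an inhibitory G protein subunit, was nearest the median at 2 weeks with 0.10, and Mrvi1, a substrate of cGMP-dependent kinase, at 8 weeks with -0.04. The genes at the ends of the list at 8 weeks were singled out after their values were seen. Prkg1, the cGMP-dependent kinase, had log2 ratios of 0.57 and 0.88, and Rgs2, a G protein regulator that this kinase phosphorylates, had -0.71 and -0.91. A dimmer Rgs2 probe, measured on all 4 arrays, read -0.24 at 2 weeks and -1.02 at 8 weeks, the latter past 2-fold.

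The 9 phosphodiesterases that hydrolyze cGMP were all measured and none passed 2-fold. Their median log2 TAC/sham was 0.20 at 2 weeks, the value of Pde2a, and 0.08 at 8 weeks, the value of Pde10a, which read -0.01 at that time on a dimmer probe. Pde5a, the target of sildenafil, read -0.23 and -0.26. Pde9a, which acts on cGMP made in response to natriuretic peptides, read 0.63 and 0.37. These last 2 genes were also named after their values were seen. Of all genes, 1.71% were higher and 0.836% lower at 2 weeks, and 2.32% and 1.46% at 8 weeks. A count of 0 in 9 is near those shares.

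None of 18 transcription factor genes linked to the Nppa and Nppb promoters passed 2-fold, and all 18 were measured. Among all genes 1.71% were higher and 0.836% lower at 2 weeks, and 2.32% and 1.46% at 8 weeks. A count of 0 in 18 is near those shares. Over the 18 factors the median log2 TAC/sham was -0.07 at 2 weeks and -0.11 at 8 weeks. The genes near those medians were Nkx2-5 with -0.08 and Myocd with -0.07 at 2 weeks, and Mef2a and Mef2c with -0.11 each at 8 weeks. Tbx5, a T-box factor named after its values were seen, had the lowest ratio of the list at both times, with -0.71 and -0.93. Gata4, whose family binds the GATAA letters printed above, read -0.21 and -0.05, and Tead1 of the family that binds CATTCC read 0.21 and 0.26, with a dimmer Tead1 probe at -0.09 and 0.34.

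Genes that lie near Nppb and Nppa on the chromosome stayed within 2-fold of sham. Miip, Mfn2, Plod1 and 2510039O18Rik lie on the Nppb side in the GRCm38.p6 gene order, and Clcn6 and Agtrap on the Nppa side. Read at the brightest probe of each, the log2 TAC/sham of these 6 genes ranged from -0.34 for Mfn2 to 0.20 for Plod1 at 2 weeks, and from -0.21 for Clcn6 to 0.19 for Agtrap at 8 weeks. The immediate neighbours were 2510039O18Rik on the Nppb side, with 0.01 and 0.00, and Clcn6, a chloride transporter gene on the Nppa side, with -0.16 and -0.21. The probes of Clcn6 disagreed at 8 weeks, since a dimmer one that was also well above background on all 4 arrays read -0.28 at 2 weeks and 0.51 at 8 weeks.

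Other genes known to rise in hypertrophy set the scale for Nppa and Nppb. Myh7, the beta myosin heavy chain, had log2 TAC/sham ratios of 2.71 and 3.69, Acta1, skeletal alpha actin, of 3.09 and 3.41, and Ankrd1, a stretch-responsive protein of the sarcomere, of 1.28 and 1.99. These 3 rose at both times. Myh6 and Atp2a2, which encode the alpha myosin heavy chain and the calcium pump of the sarcoplasmic reticulum, had -0.19 and -0.45 at 2 weeks and -0.19 and -0.37 at 8 weeks. A dimmer Myh6 probe read -0.36 and -0.54, and a dimmer Atp2a2 probe -0.43 and -0.54. Cross-hybridization between the probes of Myh6 and Myh7, which are near-identical paralogs, was not tested.

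Markers of atrial muscle, the main source of Nppa in the normal heart, were read as a list of 6. Of these, 3 were measured on all 4 arrays. The summed relative signal of the 6 markers was 4.16 in sham and 4.64 in TAC at 2 weeks, and 6.17 in sham and 4.92 in TAC at 8 weeks, with Myl4, which gave 2.69 to 3.85, as the brightest. At 2 weeks 1 of 6 was higher and none lower, where 1.71% and 0.836% of all genes were. At 8 weeks 1 was higher and 3 were lower, where 2.32% and 1.46% of all genes were. Dkk3, which was higher at both times, had log2 TAC/sham ratios of 1.63 and 1.17.

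At 8 weeks the atrial markers Myl7, the atrial myosin light chain, and Sln, sarcolipin, were not well above background in TAC, which puts them at least 3.64-fold and at least 2.55-fold lower than in sham. Kcnj3, an atrial potassium channel subunit, had a log2 TAC/sham of -1.72, and -1.06 on a further probe. Nppa was at its highest on the same array, and the part of atrial tissue in its ratios was not tested. The sham pools differed for these markers too, with log2 sham 8 weeks/sham 2 weeks of 1.04 for Kcnj3, 1.27 for Dkk3 and 0.63 for Sln. The relative signal of Myl7 was 0.170 in sham at 8 weeks and 0.0489, not well above background, in sham at 2 weeks, a measured log2 difference of 1.80. The ratios of these markers at 8 weeks are thus read against a sham array on which they were higher than on the sham array at 2 weeks. Bmp10 was well above background on 1 array.

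None of the 6 genes on the ventricular marker list passed 2-fold. Their median log2 TAC/sham was -0.14 at 2 weeks, where 2 of them were above 0, and -0.16 at 8 weeks, where none was. Of those above 0, Myl2 read 0.06 at 2 weeks, but a dimmer Myl2 probe, measured on all 4 arrays, read -0.40 and -0.46. Of 7 fibroblast markers, all measured, none passed 2-fold at 2 weeks and 1, Col1a1, rose at 8 weeks, with a list median of 0.31 and 0.40 and a log2 ratio for Col1a1 of 0.97 and 1.20. The summed relative signal of that list was 175 and 222 in sham and TAC at 2 weeks and 200 and 265 at 8 weeks. Of 9 leukocyte markers, all measured, the neutrophil genes S100a8 and S100a9 rose at both times, with 1.11 and 2.17 for S100a8 and 1.21 and 2.00 for S100a9. The leukocyte list had medians of 0.44 and 0.31 and a summed relative signal of 38.9 and 48.4 at 2 weeks and 39.0 and 49.4 at 8 weeks. Beside the counts of these 3 lists, 1.71% of all genes were higher and 0.836% lower at 2 weeks. At 8 weeks the shares were 2.32% and 1.46%. The part of any of these cell types in the ratios of Nppa and Nppb was not tested.

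The genes whose pattern over the 4 arrays was most like that of Nppa, Nppb or Npr3 were found by the distance between log2 levels, each set relative to its own mean over the arrays, among 14291 other measured genes. With 4 points this is a loose measure. Within a distance of 0.5 there were 7 genes for Nppa, 35 for Nppb and 316 for Npr3. Nppa and Nppb were 0.98 apart, so neither was among the nearest genes of the other.

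Nearest to Nppa were Timp1, an inhibitor of matrix metalloproteinases, at a distance of 0.15, Col8a1, a collagen chain, at 0.18, Frzb, a secreted Wnt antagonist, at 0.31, Mfap4, a microfibril protein, at 0.33 and Adamts8, a secreted protease, at 0.37. The relative signal of Timp1 was 0.872 in sham and 3.16 in TAC at 2 weeks, and 0.774 in sham and 4.34 in TAC at 8 weeks. Like Nppa, Timp1 was lower in the sham pool at 8 weeks than at 2 weeks. Its log2 TAC/sham was 1.86 and 2.49.

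Nearest to Nppb were Meox1, a homeobox factor, at 0.086, Apod, apolipoprotein D, at 0.095, Myot, a Z-disc protein, at 0.11, Sphk1, a sphingosine kinase, at 0.15 and Rcan1, a regulator of calcineurin, at 0.17. The relative signal of Meox1 was 1.71 in sham and 3.76 in TAC at 2 weeks, and 2.12 in sham and 7.90 in TAC at 8 weeks. All 5 had log2 TAC/sham ratios between 0.88 and 1.14 at 2 weeks and between 1.72 and 1.90 at 8 weeks.

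Nearest to Npr3 were Htatip2 at 0.088, Ccl2, a monocyte chemokine, at 0.14, Megf10, a phagocytic receptor, at 0.20, Icam1, a leukocyte adhesion molecule, at 0.20 and Abat, which breaks down GABA, at 0.20. None of them passed 2-fold at either time, and their log2 TAC/sham ratios at 8 weeks ran from 0.32 to 0.61. With 316 genes within 0.5, the nearest 5 single out little.

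**Figure D4:**
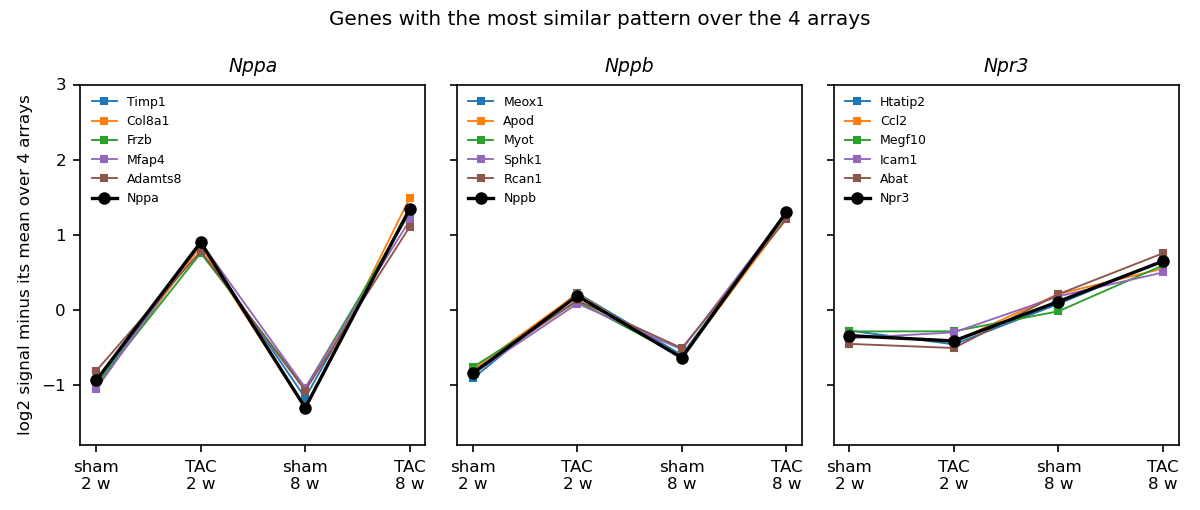
Log2 signal minus its mean over the 4 arrays for Nppa, Nppb and Npr3 (black) and for the 5 measured genes nearest to each in pattern (colours), with the 4 arrays on the horizontal axis and lines joining points for reading only. The Nppa panel swings with TAC at both times and the Nppb panel more at 8 weeks, whereas the Npr3 panel differs mainly between the 2-week and the 8-week arrays.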

How the data were processed

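The authors extracted the scanned images, per the file headers, with Feature Extraction (Agilent) 10.7.3.1, whereas the submitters' processing notes name version 9.1. The deposited processed signal is an intensity per spot after background subtraction, not normalized between arrays. All 4 arrays lay on the same slide and were scanned together. The array annotation used mm9. The value table deposited for the series has this intensity, too, times a constant per array. The methods name GeneSpring GX without a normalization.

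Here control spots and spots marked as outliers were left out, spots of a probe were averaged as log2, and the array's 75th percentile over probes was subtracted. Gene names came by transcript accession from RefSeq tables of GRCm38.p6, or from GENCODE where those held no match. Of the 26392 probes with a RefSeq mRNA accession, 25984 were named. A gene was read at its brightest probe. A change was called above 2-fold with the brighter array well above background. Where the dimmer array was not, the fold is a bound, for which the dim signal was raised to that array's lowest signal well above background if it lay under it. List counts cover all genes with a probe, and list medians cover those measured on all 4 arrays. The members and gene lists were chosen with earlier results of these data known. Named were all members, list genes past 2-fold or nearest the list median, and the 5 genes nearest in pattern to each member whose log2 level spanned over 1.

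The alternatives were the array median, quantile normalization, no scaling, the deposited table, normexp of limma 3.58.1 in R 4.3.3 on the median signal (offset 50), outlier spots kept, the mean of a gene's probes, thresholds of 1.5-fold and 3-fold, and other filters on dim probes. The counting was tested on simulated data, only with changes well past 2-fold in probes well above background. Ratios near the 2-fold rule and dim probes were not covered by it. The number of arrays, 1 per group, limits the precision. Python 3.11.15, pandas 2.3.3 and numpy 2.4.6 were used. Promoter windows are RefSeq's. Some genes and sequences of the lists are not reported here.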

Additional observations from a re-analysis of the deposited data

Results flagged for a closer look

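A pair of genes from the related lists had TAC/sham ratios of opposite sign at the 2 times, each larger than 0.34, which is 2 times the SD between spots of a log2 ratio over all levels. Myl7, the atrial myosin light chain, had a log2 TAC/sham of 0.67 at 2 weeks and of -2.49 at 8 weeks. It was not well above background in sham at 2 weeks or in TAC at 8 weeks, so both values are measured differences against a dim signal, and the bounds are at least 1.30-fold higher and at least 3.64-fold lower. Dpp4, a peptidase that trims B-type natriuretic peptide, had 0.45 at 2 weeks and -0.49 at 8 weeks, and was well above background on 2 of the 4 arrays. As bounds, Dpp4 was at least 1.09-fold higher after TAC at the earlier time and at least 1.41-fold lower at the later one, and the first bound is smaller than the difference used above. Its 4 relative signals were between 0.0475 and 0.0775, where 2 times that SD is 0.63. The difference between the times was not tested for either gene. None of the 9 genes of the natriuretic peptide system had ratios of opposite sign of this size.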

How the results depend on the processing

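The log2 TAC/sham of Nppa ran from 1.80 to 1.93 at 2 weeks and from 2.63 to 2.82 at 8 weeks over the settings tried, and that of Nppb from 0.99 to 1.06 and from 1.92 to 2.11. At 2 weeks the count of the 9 genes more than 2-fold higher was 2, and it was 1 with the array median in place of the 75th percentile and 1 at a 3-fold threshold. The 70 other recomputed values for Nppa, Nppb and the counts moved by no more than the spot error over all levels, 0.17, or, for counts, by no more than 1.5 times. Some of these could not move, since Nppa and Nppb have 1 probe each and the mean of a gene's probes is then the main value. Of 98 values for the other genes 6 moved by more than 0.17, namely Npr3 at 8 weeks and Mme at both times with normexp and 3 values of Nppc. A reversal was counted only for ratios past 2-fold, so none could be counted for these genes. The sign of the ratios of Npr1, Npr2, Furin and Nppc changed with the setting in at least 1 comparison. Without scaling between arrays, the median log2 TAC/sham of all measured genes at 8 weeks was 0.16, compared with -0.01. No paired analysis was possible because each group is 1 array. Signal over background limits Npr1, Npr3, Mme and Nppc, and no ratio has an error over mice.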

Other observations

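By the rule used above, the remaining cell type lists held no gene past 2-fold at either time. That rule called 1.71% of all genes higher and 0.836% lower at 2 weeks, and 2.32% and 1.46% at 8 weeks. None of 7 endothelial and endocardial markers passed 2-fold, with a median log2 TAC/sham of 0.19 at 2 weeks and 0.01 at 8 weeks. Neither did any of 5 smooth muscle markers, with 0.03 and 0.19. Of 5 adipocyte markers only Cfd was measured on all 4 arrays, with -0.97 and 0.18, while Adipoq, Plin1, Cidec and Ucp1 were not well above background on any. The erythroid markers Alas2 and Hba-a1 read -0.28 each at 2 weeks and 0.13 and 0.08 at 8 weeks.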
